A study of Homo sapiens with 3 samples.

Results

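LIN28A and LIN28B, the let-7 targets HMGA1, HMGA2, IGF2BP1, IGF2BP2, IGF2BP3 and ARID3B, and DIS3L2, the nuclease that degrades the let-7 precursor, were described in untreated HEK293T cells. The 9 genes were taken by symbol from a table of 35880 gene symbols, after the abundance of all transcripts of a symbol had been summed, and all 9 had transcripts in the table. HEK293T, a transformed and established line of human embryonic kidney origin, expresses the large T antigen of SV40. Polyadenylated RNA from untreated, subconfluent cells in high-glucose medium with serum was sequenced in 3 libraries, labelled biological replicates 1, 2 and 3, which formed 1 group. Levels are in TPM, a transcript's share of all transcripts in its library after division by transcript length, and are given for replicates 1, 2 and 3 in that order, then as mean ± SD (n = 3). The labels do not say that the replicates were separate cultures, so the p-values reflect the spread among 3 libraries, part or all of which may be technical. Because the fits were moderated, the p-values also draw on the spread of other genes.

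let-7 microRNAs repress messages that carry a match to their seed, the bases near the 5′ end that pair with the target. LIN28 proteins bind the loop of let-7 precursors, where their zinc knuckles recognise GGAG. They block processing, and LIN28A recruits the uridylyltransferases TUT4 and TUT7, after which DIS3L2 degrades the uridylated precursor. LIN28A, LIN28B, HMGA2, the IGF2BP genes and ARID3B are high in embryonic tissue, are repressed as let-7 rises during differentiation, and are called oncofetal because many tumours express them again. LIN28B is itself a let-7 target. The let-7 microRNAs themselves were not analysed here, because the table measures long polyadenylated transcripts.

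The mature let-7 sequences are shown because their shared seed defines the matches counted below. From the 5′ arm of the hairpin (5p), the 12 human let-7 family genes, mir-98 included, give 9 mature names in RefSeq (GRCh38.p14). All of these 5p names share the seed GAGGUAG (bases 2 to 8, in capitals).
hsa-let-7a-5p (from let-7a-1, chr9:94175962-94175983, + strand): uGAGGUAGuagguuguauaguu
hsa-let-7e-5p (chr19:51692793-51692814, + strand): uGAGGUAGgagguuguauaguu
hsa-let-7i-5p (chr12:62603691-62603712, + strand): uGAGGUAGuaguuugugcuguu
hsa-miR-98-5p (chrX:53556299-53556320, − strand): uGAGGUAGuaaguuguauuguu
Only 11 of the 2370 mature names in RefSeq carry this seed.

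The hairpins are shown because their loops hold the letters that LIN28 reads. GGAG (one strand, in capitals) lay between the arms in 9 of the 12 let-7 hairpins, and in 8.08% of the 743 human hairpins that have both arms listed. It was absent there from let-7a-3, let-7b and mir-98, while let-7e held it at 2 places. For let-7f-2, with 1 listed arm, the search ran to the end of the hairpin.
let-7g (chr3:52268278-52268361, − strand): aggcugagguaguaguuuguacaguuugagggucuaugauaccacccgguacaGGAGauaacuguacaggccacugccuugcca
let-7e (chr19:51692786-51692864, + strand): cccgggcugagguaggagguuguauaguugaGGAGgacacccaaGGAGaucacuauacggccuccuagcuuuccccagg
let-7b (chr22:46113686-46113768, + strand): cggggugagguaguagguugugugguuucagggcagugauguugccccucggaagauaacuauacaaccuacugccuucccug
let-7a-3 (chr22:46112749-46112822, + strand): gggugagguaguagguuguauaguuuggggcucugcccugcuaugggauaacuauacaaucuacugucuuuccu
A match of letters is a description of the sequence, and LIN28 binding was not measured.

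Target sites were counted in 3′ UTRs from GENCODE release 29 (GRCh38, which is hg38), on the transcript strand. The main 3′ UTR of a gene was that of its most abundant protein-coding transcript with a complete annotated 3′ UTR. In each gene of the set this was also the most abundant transcript of any type. The 8-base match CTACCTCA pairs with bases 2 to 8 and has an A opposite base 1. The 7-base matches are CTACCTC and TACCTCA, and the core common to all of them is TACCTC. Each position was counted once under its longest match. Because these genes are known let-7 targets, finding matches in them is no independent result. Matches of 7 bases or more numbered 7 in HMGA2, 5 each in LIN28B, IGF2BP1 and ARID3B, 2 in IGF2BP2, 1 each in LIN28A, HMGA1 and IGF2BP3, and 0 in DIS3L2. The main 3′ UTRs of 16142 genes held at least 1 such match in 13.4% of cases, an 8-base match in 3.07%, and 5 or more matches in 0.0558%, which is 9 genes. HMGA2, LIN28B, IGF2BP1 and ARID3B were 4 of those 9, and the others were TRIM71 with 8 matches, CLCN5, FIGN and ONECUT2 with 6 each, and NR6A1 with 5.

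One site of each gene that has any is shown, and a second for HMGA2, IGF2BP2 and ARID3B, with the matched letters in capitals and the DNA alphabet of the annotation. Each lies within 1 exon of the 3′ UTR.
LIN28B site 1 (chr6:105078805-105078834, + strand): ttcctttacccggttgcaaagtCTACCTCA
LIN28A site 1 (chr1:26427341-26427370, + strand): ttggagtgcacagcctattgaaCTACCTCA
HMGA2 site 1 (chr12:65963293-65963320, + strand): ggggcgccaacgttcgatttCTACCTCA
HMGA2 site 4 (chr12:65964888-65964917, + strand): ttaaatattaccctccaagtctgTACCTCA
HMGA1 site 1 (chr6:34245822-34245851, + strand): ccatttttcctctgttcacaaaCTACCTCt
IGF2BP1 site 4 (chr17:49053691-49053720, + strand): tgggaaccagcagtgctagtaaCTACCTCA
IGF2BP2 site 1 (chr3:185644220-185644249, − strand): cgagaaaaacacacagaagaagCTACCTCA
IGF2BP2 site 2 (chr3:185644205-185644234, − strand): gaagaagctacctcaggtgttttTACCTCA
IGF2BP3 site 1 (chr7:23311795-23311824, − strand): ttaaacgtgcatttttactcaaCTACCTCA
ARID3B site 1 (chr15:74595819-74595848, + strand): gaaggaagttgatgcacagaattTACCTCA
ARID3B site 5 (chr15:74598094-74598123, + strand): atgtttatatttcaataaacctCTACCTCt
An 8-base match was present in 6 of the 9 genes. HMGA1 had only a 7-base match, and 4 of the 5 matches of ARID3B were TACCTCA without the C before it.

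**Figure D1:**
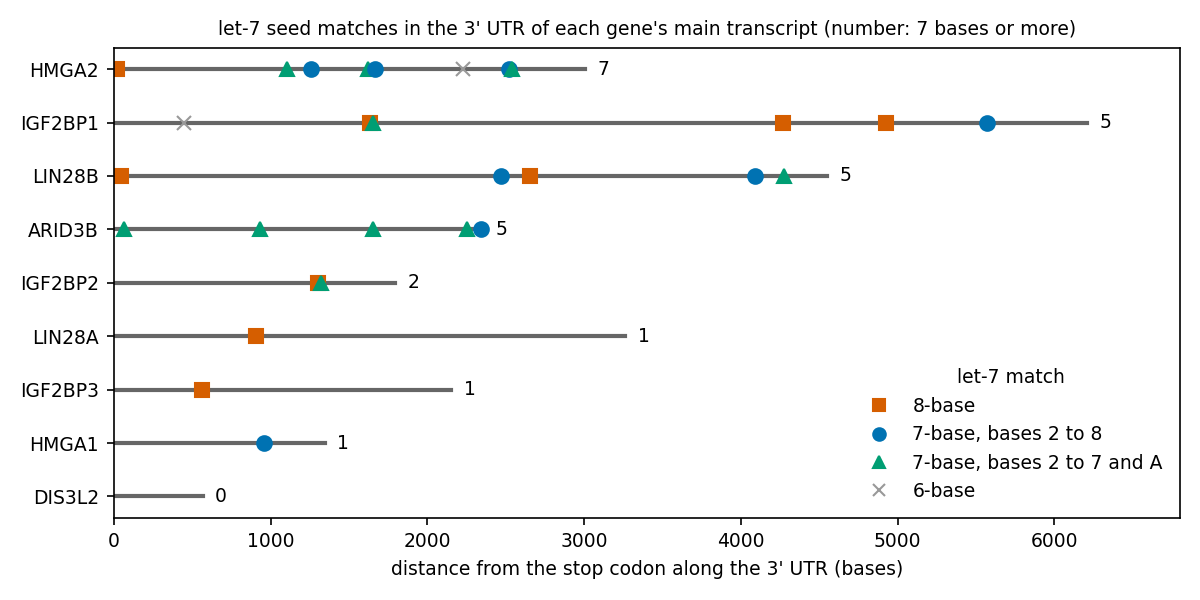
Position of let-7 seed matches (first base of the core TACCTC) along the 3′ UTR of the main transcript of each gene, in bases from the stop codon, with the 3′ UTR drawn to scale as a line and the number of matches of 7 bases or more at its end. HMGA2 holds 7 over 3003 bases, IGF2BP1 holds 5 over 6206 bases, and DIS3L2 holds 0 over 567 bases.

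The 3′ UTRs differed in length as well as in matches, so the density was also taken. HMGA2 carried 2.33 matches per kilobase and ARID3B 2.12, against 1.12 in IGF2BP2, 1.10 in LIN28B, 0.806 in IGF2BP1, 0.742 in HMGA1, 0.464 in IGF2BP3 and 0.306 in LIN28A, and 0.110 over all main 3′ UTRs. Among 3′ UTRs of similar length (0.8 to 1.25 times), a match of 7 bases or more occurred in 48.0% of those as long as that of IGF2BP1 and 37.9% of those as long as that of LIN28B. The share was 26.7% at the length of HMGA2, 20.6% at that of ARID3B, 14.6% at that of HMGA1 and 6.44% at that of DIS3L2. Positions along the 3′ UTR are those of the first base of the core TACCTC, counted from 1 after the stop codon. In IGF2BP1 the cores at bases 1633 and 1651 lay close together. So did those at bases 1305 and 1320 of IGF2BP2 and at bases 2522 and 2541 of HMGA2. The first core stood at base 22 of the 3′ UTR of HMGA2, base 45 of that of LIN28B and base 68 of that of ARID3B. The last core of ARID3B stood at base 2343 of 2357.

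Levels were set against 1 TPM by a moderated one-sample fit in limma on log2(TPM + 0.01), adjusted by Benjamini-Hochberg over the 21990 symbols above 0 in at least 1 library and called at an adjusted p under 0.05. Of the 9 genes, 8 lay above 1 TPM and LIN28A lay below it, where 58.5% of all symbols tested were called above and 33.9% below. The median of the 9 mean levels was 35.7 TPM, against 4.29 TPM over all symbols tested. The set was not tested against other sets. About 33020000, 33600000 and 33440000 reads were assigned to transcripts, estimated from the spacing of low values, since TPM itself keeps no depth. At that depth the 8 abundant genes were represented by about 786 to 18054 reads per library.

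Of the LIN28 pair, HEK293T cells had LIN28B and almost no LIN28A. LIN28B (ENSG00000187772.7, chr6:104936616-105083332, + strand) stood at 39.5, 39.3 and 40.2 TPM, or 39.6 ± 0.465 TPM (SD, n = 3). The 3 libraries were close to each other, with a coefficient of variation (CV, the SD as a percentage of the mean) of 1.17%, below that of all but 8.16% of genes of at least 1 TPM. LIN28A (ENSG00000131914.10, chr1:26410778-26429722, + strand) stood at 0.0896, 0.154 and 0.0776 TPM, or 0.107 ± 0.0410 TPM (SD, n = 3). These LIN28A values rest on about 8.03, 14.1 and 7.04 reads per library, so the level is imprecise, and all 3 libraries were below 1 TPM. The log2 difference of LIN28A from 1 TPM was -3.16 (SE 0.385, adjusted p = 0.00156 with limma). The size of this difference depends on the pseudocount: it was -2.43 with 0.1 and -0.85 with 1, and LIN28A was called below under both. LIN28B exceeded LIN28A by 8.63, 7.91 and 8.84 on the log2(TPM + 0.01) scale, a mean of 8.46 (SE 0.365) and past the threshold of limma's test. That mean was 7.60 with a pseudocount of 0.1 and 5.20 with 1. Both paralogs bind let-7 precursors. Of the 31-base words of LIN28A, 8.12% occur in transcripts of another symbol, and its pseudogenes LIN28AP1 and LIN28AP2 were listed at 0.

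The HMGA genes encode small AT-hook proteins that bind the minor groove of DNA and shape chromatin. HMGA1 (ENSG00000137309.19, chr6:34236873-34246231, + strand) was the most abundant of the 9, at 323, 325 and 317 TPM, or 322 ± 4.37 TPM (SD, n = 3), and ranked 410 among all symbols by mean TPM. HMGA2 (ENSG00000149948.13, chr12:65824131-65966295, + strand) stood at 35.5, 35.8 and 35.8 TPM, or 35.7 ± 0.198 TPM (SD, n = 3). Its CV of 0.555% was the smallest of the 9 genes. HMGA1 exceeded HMGA2 by 3.19, 3.18 and 3.15 on the log2(TPM + 0.01) scale, a 9.01-fold difference (SE 0.0143 on the log2 scale, adjusted p = 2.01e-08 with limma). HMGA1 shares 18.1% of its 31-base words with other symbols, among them HMGA1P1 with 6.21% and HMGA1P3 with 3.23%. Those pseudogenes were low, at 0.0982 ± 0.0488 TPM for HMGA1P1 and 0.314 ± 0.00693 TPM for HMGA1P3, and HMGA1P8 stood at 2.22 ± 0.643 TPM (SD, n = 3 each) from about 4.66 to 8.15 reads. The other 4 HMGA1 pseudogenes in the table were listed at 0.

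The IGF2BP genes encode RNA-binding proteins with KH domains that stabilise and localise their target messages. IGF2BP1 (ENSG00000159217.9, chr17:48997412-49055650, + strand) stood at 105, 106 and 109 TPM, or 107 ± 2.15 TPM (SD, n = 3). IGF2BP2 (ENSG00000073792.15, chr3:185643739-185825056, − strand), the member also widely expressed in adult tissue, stood at 39.4, 34.7 and 38.2 TPM, or 37.5 ± 2.48 TPM (SD, n = 3), lowest in replicate 2. IGF2BP3 (ENSG00000136231.13, chr7:23310209-23470467, − strand) stood at 30.0, 27.5 and 30.0 TPM, or 29.2 ± 1.43 TPM (SD, n = 3), also lowest in replicate 2. All 3 were present together, with IGF2BP1 highest in every library. IGF2BP1 exceeded IGF2BP2 by 2.86-fold (log2 1.51, SE 0.0631, adjusted p = 1.54e-09 with limma) and IGF2BP3 by 3.67-fold (log2 1.87, SE 0.0448, adjusted p = 2.10e-08). IGF2BP2 exceeded IGF2BP3 by 1.28-fold (log2 0.36, SE 0.0446, adjusted p = 1.04e-04 with limma). Exons of MALSU1, at 98.1, 104 and 95.4 TPM, overlap IGF2BP3 on the opposite strand. The libraries were directional, but the strand setting of the quantification is not given in the sources used here, so the level of IGF2BP3 is uncertain to that extent.

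ARID3B is a DNA-binding protein with an ARID domain and a let-7 target that acts with its paralog ARID3A. ARID3B (ENSG00000179361.17, chr15:74541177-74598131, + strand) stood at 23.3, 24.2 and 24.3 TPM, or 23.9 ± 0.573 TPM (SD, n = 3). ARID3A stood at 25.6, 25.8 and 28.3 TPM. The log2 difference of ARID3B from ARID3A was -0.136, -0.091 and -0.216 in the 3 libraries, a mean of -0.15 (SE 0.0379, adjusted p = 0.0114 with limma). ARID3B was lower in every library, at 0.903 times ARID3A on average, but this call was lost without replicate 1 (adjusted p = 0.0715) and without replicate 3 (adjusted p = 0.0765). The third paralog, ARID3C, lay below 1 TPM at 0.302 ± 0.0752 TPM (SD, n = 3), a call lost with no filter on low values. ARID3B shares 21.0% of its 31-base words with other symbols, most of them with AL138799.1, which was at or near 0 in all 3 libraries.

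DIS3L2 (ENSG00000144535.19, chr2:231961245-232344350, + strand) stood at 15.7, 17.8 and 16.1 TPM, or 16.5 ± 1.15 TPM (SD, n = 3), highest in replicate 2. Of the 8 genes above 1 TPM it was the lowest and had the largest CV, 6.97%. It was 0.230 times as high as DIS3, the catalytic exosome subunit (71.8 ± 2.43 TPM, SD, n = 3), with a log2 difference of -2.12 (SE 0.0676, adjusted p = 1.92e-11 with limma). It was 0.562 times as high as DIS3L, the cytoplasmic exosome nuclease (29.4 ± 1.92 TPM, SD, n = 3), with a log2 difference of -0.83 (SE 0.0753, adjusted p = 3.22e-07 with limma). AC068134.3 overlaps exons of DIS3L2 on the same strand, holds 4.56% of its 31-base words and stood at 3.20, 2.19 and 2.84 TPM, so reads may be split between them.

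**Figure D2:**
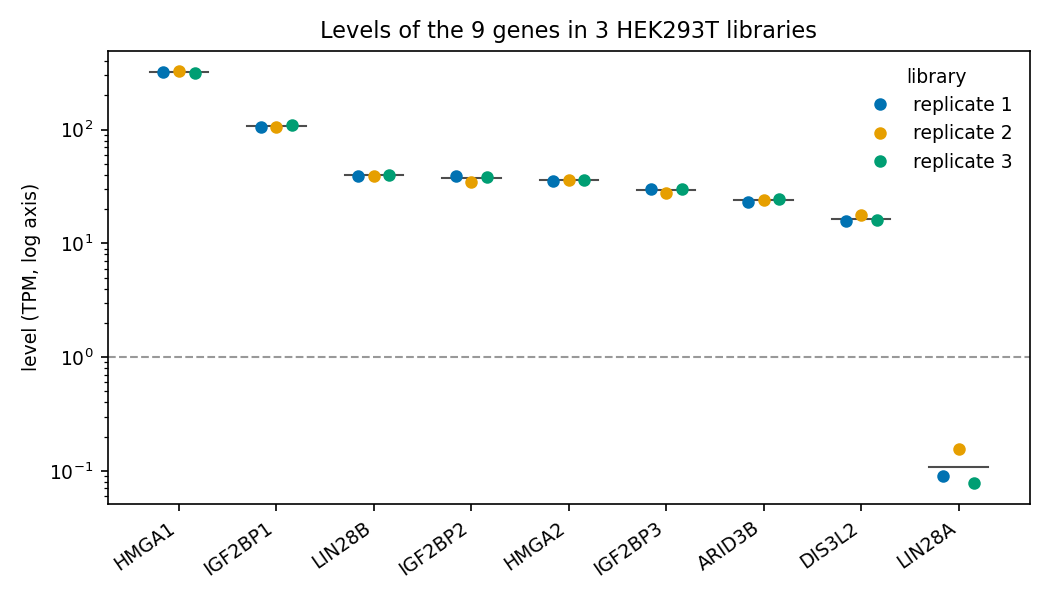
Level of each gene in TPM on a log axis, with 1 point per library (replicates 1, 2 and 3), a bar at the mean of 3, and a dashed line at 1 TPM. HMGA1 (322 TPM) and IGF2BP1 (107 TPM) stand above a group between 16.5 and 39.6 TPM, and LIN28A (0.107 TPM) stands below 1 TPM.

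Ordered by mean level, the genes ran HMGA1, IGF2BP1, LIN28B, IGF2BP2, HMGA2, IGF2BP3, ARID3B, DIS3L2 and LIN28A. Neighbours in that order were compared within libraries, with the same moderated limma fit, on the log2 difference of every gene from the lower neighbour. Of the 8 pairs of neighbours, 6 differed at an adjusted p under 0.05. HMGA1 exceeded IGF2BP1 by 3.01-fold (adjusted p = 1.89e-07 with limma), and IGF2BP1 exceeded LIN28B by 2.69-fold (adjusted p = 3.65e-07). LIN28B and IGF2BP2 could not be ordered, with log2 differences of 0.001, 0.180 and 0.071 (adjusted p = 0.228 with limma). IGF2BP2 and HMGA2 could not be ordered either, with log2 differences of 0.152, -0.048 and 0.094 (adjusted p = 0.209 with limma). Without replicate 2, in which IGF2BP2 was lowest, IGF2BP2 exceeded HMGA2 by 0.12 on the log2 scale (adjusted p = 0.0326 with limma). LIN28B exceeded HMGA2 by 0.15 on the log2 scale (SE 0.0214, adjusted p = 0.00156 with limma), higher in 3 of 3 libraries. HMGA2 exceeded IGF2BP3 by 1.23-fold (adjusted p = 6.85e-04 with limma), IGF2BP3 exceeded ARID3B by 1.22-fold (adjusted p = 0.00133), and ARID3B exceeded DIS3L2 by 1.45-fold (adjusted p = 1.69e-05). DIS3L2 exceeded LIN28A by 7.20 on the log2(TPM + 0.01) scale (SE 0.368) and by 3.98 with a pseudocount of 1, past the threshold of limma's test in both.

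These differences are of a kind that most genes show, so a call says little about the 9 genes beyond their order. The share of all other symbols called different was 99.2% against IGF2BP1, 98% against LIN28B, 96.4% against IGF2BP2, 97.9% against HMGA2, 96.8% against IGF2BP3, 97.4% against ARID3B, 95.9% against DIS3L2 and 77.8% against LIN28A. Within each of these fits every difference is taken from the same gene, so the tests are not independent of each other. The size of their p-values was unstable. With limma, the adjusted p of DIS3L2 against DIS3 was 1.92e-11, but 2.04e-185 with a pseudocount of 1 and 2.97e-06 without replicate 2. These p-values therefore give the call only, and their size does not measure precision.

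The genes whose levels were nearest to those of LIN28B over the 3 libraries were UQCRFS1, the Rieske iron-sulfur subunit of respiratory complex III, EXT2, an enzyme of heparan sulfate synthesis, and BRD9, a bromodomain subunit of a SWI/SNF complex. Their Euclidean distances from LIN28B in log2(TPM + 0.01) were 0.0148, 0.0194 and 0.0195. UQCRFS1 stood at 39.8 ± 0.409 TPM, EXT2 at 39.7 ± 0.725 TPM and BRD9 at 39.7 ± 0.215 TPM (SD, n = 3 each). With 160 symbols within a distance of 0.1, many genes stood at this level.

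The table listed 79 transcripts of the 9 genes, and all of them matched the annotation by identifier and length. At the level of single transcripts, 19 lay above 1 TPM, 17 below it and 29 could not be placed, and 14 were listed at 0 (limma, adjusted over 122057 transcripts, of which 30.8% were called above and 25.1% below). The count below 1 TPM fell to between 0 and 2 when any 1 library was left out, while that above 1 TPM was 18 or 19. Only 23 transcripts held at least 5% of their gene's mean TPM. Reads are assigned between isoforms of one gene by estimation, so these shares are less certain than the gene levels.

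LIN28B and HMGA2 were carried almost wholly by 1 transcript. LIN28B-201, which encodes 250 residues, stood at 38.9, 38.5 and 39.6 TPM and held 98.4% ± 0.368 of the gene's TPM (SD, n = 3). HMGA2-204, which encodes the AT-hook protein of 109 residues, stood at 33.4, 34.1 and 34.2 TPM and held 94.9% ± 0.596 (SD, n = 3). None of the other coding transcripts of HMGA2 reached 5%: the one for 118 residues averaged 0.309 TPM and that for 147 residues 0.305 TPM. LIN28A-202, for 209 residues, held all of the little LIN28A that was detected.

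HMGA1 is known for a longer and a shorter protein that differ by a short internal stretch, and both coding lengths were present. Transcripts encoding 107 residues summed to 246, 246 and 234 TPM, or 75.2% ± 1.32 of HMGA1, and those encoding 96 residues to 76.9, 79.5 and 83.4 TPM, or 24.8% ± 1.32 (SD, n = 3 each). The longer form held the larger share in every library, and the share was lowest in replicate 3. HMGA1-201 alone stood at 218 ± 7.34 TPM (SD, n = 3).

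IGF2BP1-201, with the full coding sequence of 577 residues and a 3′ UTR of 6206 bases, stood at 90.5, 91.3 and 90.0 TPM and held 84.8% ± 2.11 of the gene (SD, n = 3). IGF2BP1-202, for 438 residues and annotated without a 3′ UTR, stood at 10.9, 10.7 and 14.5 TPM. For IGF2BP2, IGF2BP2-202 (599 residues) stood at 22.3, 21.8 and 23.5 TPM and IGF2BP2-201 (556 residues) at 6.06, 5.92 and 5.49 TPM. Non-coding transcripts of IGF2BP2 summed to 10.5, 6.24 and 8.43 TPM, lowest in replicate 2 like the gene's total. Among them IGF2BP2-206, of 380 bases, had 6.50, 3.65 and 6.49 TPM from about 15.8 to 27.9 reads. IGF2BP3-201, for 579 residues, stood at 23.3, 23.7 and 22.6 TPM. The IGF2BP3 total was lowest in replicate 2, where the retained-intron transcript IGF2BP3-217 had 0.559 TPM, against 3.33 and 1.92 TPM in replicates 1 and 3. The main coding transcripts of IGF2BP2 and IGF2BP3 thus varied less between libraries than short, thinly read transcripts of the same genes did.

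ARID3B-201 (560 residues) stood at 16.0, 17.4 and 16.2 TPM and ARID3B-206 (561 residues) at 5.94, 5.28 and 5.29 TPM. Together with a retained-intron transcript they made up 97.7% of ARID3B. DIS3L2 was the most divided of the genes, with 6 transcripts of at least 5%. Transcripts for the full protein of 885 residues held 36.8%, 32.7% and 25.4% of the DIS3L2 TPM, or 31.7% ± 5.80 (SD, n = 3). Transcripts annotated with an incomplete coding sequence held 38.6% ± 6.60 (SD, n = 3), lowest in replicate 1. DIS3L2-208, one of these, had 0.882, 2.72 and 3.39 TPM, lowest in replicate 1. In TPM, transcripts for the full-length nuclease summed to 5.77, 5.84 and 4.09, of the gene totals given above.

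**Figure D3:**
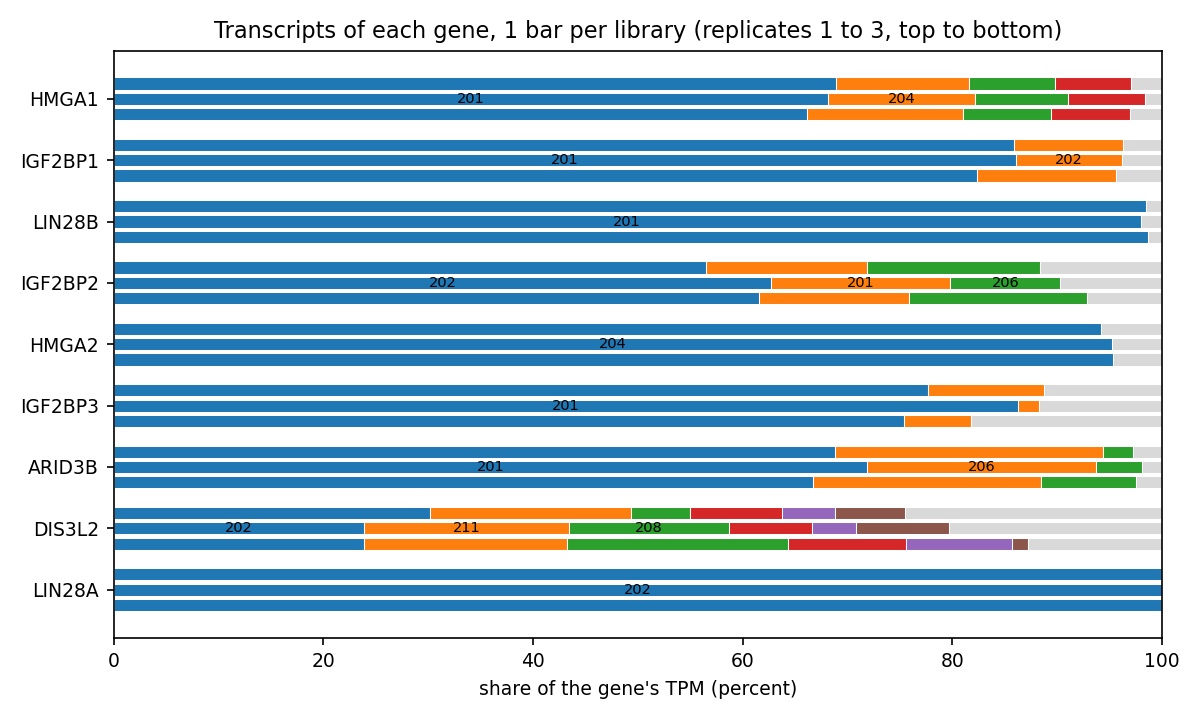
Share of each gene's TPM, in percent, held by each transcript with at least 5% of its mean TPM, with 1 bar per library, coloured blocks numbered by transcript where wide enough, and grey for all other transcripts. LIN28B and HMGA2 are nearly 1 block (98.4% and 94.9%), while the largest block of DIS3L2 holds 26.0% ± 3.61 (SD, n = 3).

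The share of each gene's TPM in transcripts whose annotated 3′ UTR holds a let-7 match of 7 bases or more was then taken from these values. All of the TPM of HMGA1 and LIN28A was in such transcripts. The share was 98.7% ± 0.650 in LIN28B, 94.9% ± 0.596 in HMGA2, 92.2% ± 3.25 in ARID3B and 84.8% ± 2.11 in IGF2BP1 (SD, n = 3 each). It was 80.3% ± 5.20 in IGF2BP3 and 77.6% ± 4.58 in IGF2BP2 (SD, n = 3 each), and 0% in DIS3L2, in each library. In HMGA2, 1 of 9 detected transcripts with an annotated coding end held a match, and that was HMGA2-204. The remaining share of IGF2BP2 and IGF2BP3 lay mostly in non-coding transcripts, which have no 3′ UTR. The 3′ ends are those of the annotation, and the ends used in these cells were not measured. A relation of site number to level was not tested. HMGA1, with 1 match, was the highest gene and LIN28A, also with 1, the lowest. The 4 genes with 5 or more matches, IGF2BP1, LIN28B, HMGA2 and ARID3B, lay between them.

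The genes that make, modify and destroy let-7 were all above 1 TPM, 14 of 14, where 58.5% of all symbols tested were called above. The nuclear processing pair DROSHA and DGCR8 stood at 71.6 ± 4.70 and 57.1 ± 0.777 TPM, the exporter XPO5 at 82.2 ± 0.834 TPM and DICER1, which cuts the precursor, at 38.5 ± 1.24 TPM (SD, n = 3 each). Of the uridylyltransferases that LIN28A recruits, TUT4 stood at 44.9, 44.8 and 48.3 TPM and TUT7 at 11.3, 13.0 and 10.2 TPM, the lowest of the list. TRIM25, a cofactor of LIN28A and TUT4, stood at 32.8 ± 2.15 TPM, and KHSRP, which binds let-7 loops and favours processing, at 713 ± 15.5 TPM (SD, n = 3 each). HNRNPA1, which opposes it, was highest at 2833 ± 48.0 TPM (SD, n = 3). The Argonaute and TNRC6 genes, which carry out silencing, were above 1 TPM in 7 of 7, against that same 58.5% of all symbols. They ranged from TNRC6C at 8.46 ± 0.286 TPM to TNRC6A at 40.2 ± 1.51 TPM (SD, n = 3 each).

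Of 24 other known let-7 targets, 21 lay above 1 TPM, 2 below and 1 could not be placed, with a median of 21.2 TPM. Among all symbols tested, 58.5% were called above and 33.9% below. HRAS was highest at 124 ± 5.62 TPM, followed by MYC at 113 ± 1.86 TPM and the phosphatase gene CDC25A at 105 ± 3.50 TPM (SD, n = 3 each). TRIM71, the ubiquitin ligase of early embryos with the most matches, stood at 3.14, 3.34 and 3.57 TPM. THBS1, a secreted matrix glycoprotein, and MYCN lay below 1 TPM, at 0.0951 ± 0.0201 and 0.268 ± 0.0961 TPM (SD, n = 3 each), and 1 was called below with no filter or with the filter of 0.1 mean TPM. The receptor gene ACVR1C, at 1.03, 1.34 and 1.52 TPM, could not be placed. The hosts of let-7 genes that were in the table lay above 1 TPM in 3 of 3: HUWE1 stood at 149 ± 2.95 TPM, WDR82 at 91.2 ± 0.305 TPM and SPACA6 at 11.2 ± 0.580 TPM (SD, n = 3 each). The non-coding hosts MIR99AHG, MIR100HG and MIRLET7BHG were not analysed here. A host transcript does not measure the microRNA.

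Other oncofetal genes in the table ranged from 0 to 24.9 TPM. Of the 8, 3 lay above 1 TPM and 3 below, where 58.5% of all symbols tested were called above and 33.9% below. With a filter of 0.1 mean TPM, which leaves the lowest genes untested, 1 was called below. SALL4 could not be placed (0.662, 0.514 and 1.58 TPM) and DLK1 was listed at 0. The glypican GPC3 was highest at 24.9 ± 1.12 TPM, TPBG stood at 10.2 ± 0.339 TPM, and IGF2, a message bound by IGF2BP proteins, at 1.41, 2.32 and 1.77 TPM. AFP, the fetal albumin, PEG10 and CEACAM5 lay below 1 TPM, at 0.0555 ± 0.0482, 0.293 ± 0.0603 and 0.0686 ± 0.0236 TPM (SD, n = 3 each). The 9 genes described here had a median of 35.7 TPM, against 0.605 TPM for these 8. Both lists were chosen with earlier results of these data known, so no conclusion is drawn from this contrast. Of 5 messages known to bind IGF2BP proteins, 4 lay above 1 TPM, led by ACTB at 1371 ± 11.5 TPM, and CD44 lay below at 0.162 ± 0.0430 TPM (SD, n = 3 each). H19 was not analysed here.

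Of 6 genes of pluripotent cells, in which LIN28A is usually found, SOX2 lay above 1 TPM at 7.41 ± 0.144 TPM (SD, n = 3), DPPA4 could not be placed at 0.525, 0.753 and 0.939 TPM, and 4 lay below, from PRDM14 at 0.0524 ± 0.0600 TPM to ZFP42 at 0.275 ± 0.0793 TPM (SD, n = 3 each), where 33.9% of all symbols tested were called below. The count below was 2 with no filter and 2 with the filter of 0.1 mean TPM. Filament genes known from HEK293T cells lay above 1 TPM in 3 of 4, where 58.5% of all symbols tested were called above. NEFM was highest at 101, 99.9 and 98.8 TPM, and NEFH lay below 1 TPM at 0.164 ± 0.0727 TPM (SD, n = 3). Of 10 markers of other cell types, only ACTA2 lay above 1 TPM, at 2.74 ± 0.473 TPM (SD, n = 3), 6 lay below, and HBB, UMOD and AQP2 were listed at 0. UMOD and AQP2 are the markers of mature kidney tubule among them.

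**Figure D4:**
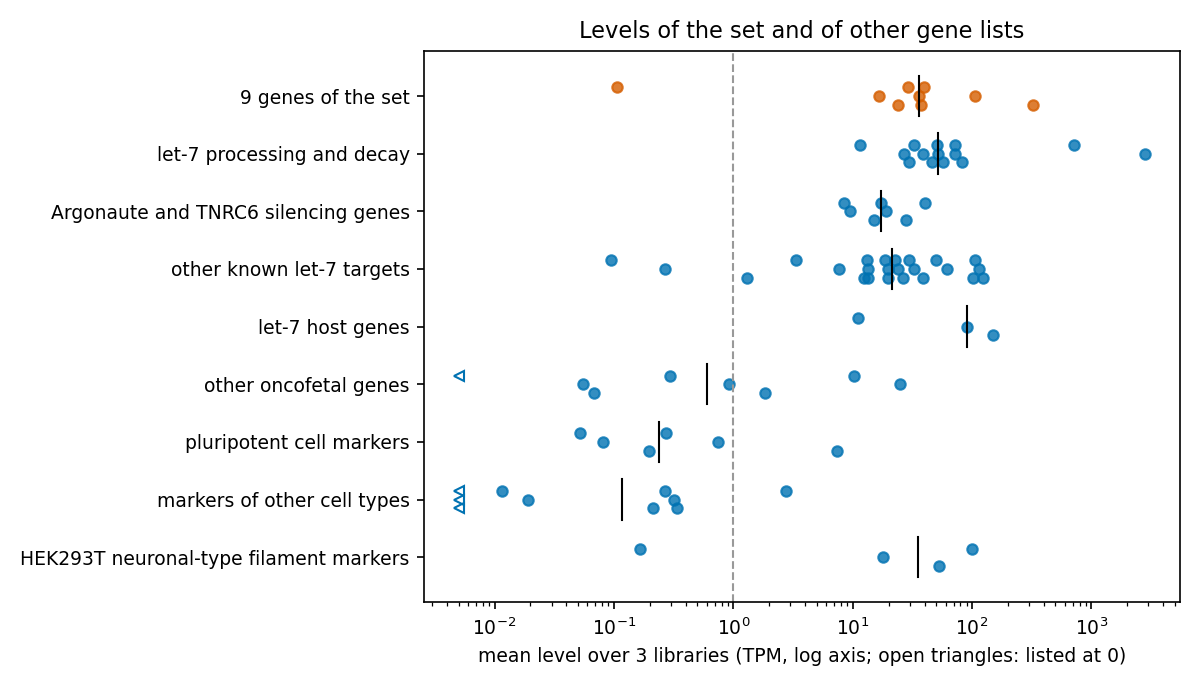
Mean level over 3 libraries, in TPM on a log axis, of each gene in the set and in 8 other lists, with 1 point per gene, a bar at the list's median, a dashed line at 1 TPM and open triangles for genes listed at 0. The set has a median of 35.7 TPM and other oncofetal genes one of 0.605 TPM, and both were chosen with earlier results of these data known. All 14 genes of let-7 processing and decay lie above 1 TPM, where 58.5% of all symbols tested were called above.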

How the data were processed

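Directional libraries were prepared from oligo-dT-captured RNA, per the labels' protocols. Transcripts were quantified with kallisto on hg38, per the submitters' processing notes, and its version, strand setting and transcript release are not given in the sources used here. TPM values, deposited by the authors after scaling within each library, were summed by gene symbol. The deposited estimated counts formed 1 column that names no library and, rescaled, matches replicate 1's TPM to a relative 1.08e-05. Counts per library were therefore not used, and the count model planned for such counts gave way to limma. The deposited count column summed to 33184885, against an estimated depth of 33020000 for replicate 1. Depth came from how low values are spaced: 31.4% to 32.9% lay within 0.02 of a whole read, against 4% for an even spread. Reads per gene are estimates from it.

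Levels and within-library differences were tested with limma 3.58.1 in R 4.3.3 on log2(TPM + 0.01), using a trended prior and adjusting by Benjamini-Hochberg over all genes or transcripts above 0 in at least 1 library. That scale understates differences of low genes. The fit was also run on simulated gene levels, with a spread between libraries that was set in advance. That run does not cover the fit on transcripts. Isoform shares and sites are descriptions without a test. Other pseudocounts, filters, scalings, levels and left-out replicates were tried. The genes and lists were chosen with earlier results of these data known. Named are the 9 genes, their transcripts of at least 5%, their pseudogenes, list genes and the 3 genes nearest to LIN28B. Genes with the most sites or shared sequence were named after their values were seen. Some results on list genes are not reported here.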

Additional observations from a re-analysis of the deposited data

How the results depend on the processing

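Under other pseudocounts (0.1 and 1), a filter of 0.1 mean TPM, no filter, 2 scalings, levels of 0.5 and 2 TPM and each left-out replicate, 8 genes stayed above and LIN28A below the level. Main-transcript shares moved by less than 1 SD, and so did shares with a let-7 match, except HMGA2 with 6-base matches counted (95.7%). Of 18 pairs, IGF2BP2 against HMGA2 and ARID3B against ARID3A changed their call, as given above. Of other known let-7 targets, 1 lay below with the 0.1 TPM filter and with no filter. Of other oncofetal genes, 1 lay below with the 0.1 TPM filter. Of the paralogs, 0 lay below with no filter or against 0.5 TPM. Of pluripotent cell markers, 2 lay below with the 0.1 TPM filter and with no filter, and of markers of other cell types 3 lay below 0.5 TPM. Transcripts of the 9 genes below 1 TPM numbered 7 with the 0.1 TPM filter, which leaves low ones untested, and 0 to 2 without 1 replicate. Otherwise the cause was not tested. Low genes such as LIN28A are limited by depth. No paired analysis was possible because the libraries form 1 group.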
